A study of Mus musculus with 8 samples.

Results

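*Cxcr3*, *Cxcr4*, *Cxcr5*, *Cxcr6*, *Ccr2*, *Ccr4*, *Ccr8*, *Ccr9* and *Cx3cr1* encode chemokine receptors that T cells use to enter inflamed tissue, barrier sites and lymphoid follicles. These 9 genes were taken by symbol from the deposited RNA-Seq table of P14 CD8+ T cells, and all 9 were found among its 24303 genes. The T cell receptor of P14 cells is a transgene that recognizes GP33, a peptide of lymphocytic choriomeningitis virus (LCMV). Naive P14 cells came from the spleens of uninfected mice, were activated with plate-bound anti-CD3 and anti-CD28 until day 2, and were then kept in medium with IL-2 and IL-15.

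The 4 groups held 2 libraries each. Effector cells received GP33 until they were collected on day 7. Acute-2d cells received no GP33 after the activation that ended on day 2 and were collected on day 19. Acute-7d cells received GP33 until day 7, were then cultured without peptide, and were collected on day 19. T_Dysf (dysfunctional) cells received GP33 throughout with TGF-β1 added from day 7, and were collected on day 19. In T_Dysf cells peptide and TGF-β1 were given together, so their effects cannot be told apart. All groups shared the initial activation and the cytokine medium, and viable CD8+ cells were sorted before RNA extraction. Cultures in vitro have no chemokine gradients, so the values are transcript levels and say nothing of migration.

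Chemokine receptors are membrane-spanning proteins that couple to inhibitory G proteins. Ligand binding releases G protein subunits that activate phospholipase C and phosphoinositide 3-kinase and steer the cell along the ligand gradient. G protein-coupled receptor kinases and arrestins then switch the receptor off, and RGS proteins shorten the G protein signal. Naive and central memory T cells carry *Ccr7*, the lymph node receptor, whereas activated CD8+ T cells acquire receptors for inflammatory ligands such as *Cxcr3* and *Ccr2*, and tissue-resident and exhausted cells are known for *Cxcr6*.

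Each library held an estimated 19381799 to 24856512 reads on genes, by a worth of 1 read inferred from its most frequent low value. Values are normalized counts, that is estimated reads divided by a size factor of each library, and 3 reads were worth between 2.59 and 3.35 normalized counts. All 6 CD8+ T cell markers (*Cd3e*, *Cd3d*, *Cd3g*, *Trac*, *Cd8a*, *Cd8b1*) were high in every library, with a summed level of 56499 to 71313 in Effector, Acute-2d and Acute-7d and of 120592 to 128267 in T_Dysf. *Cd4* was at or under 3 reads in 6 of 8 libraries and at most 13.0. A prefix, RESUB, of unstated meaning stands in the label of 3 libraries, which are the 2 of Effector and replicate 1 of Acute-7d. In those 3 libraries *Xist*, which female cells transcribe from the inactive X chromosome, was at 53.5 to 115, against 21871 to 30427 in the other 5. Donor mice were of either sex. Effector differs from T_Dysf and from Acute-2d in treatment, day, prefix and *Xist* level at once, so these cannot be told apart there. The prefix covers every Effector library and 1 of the 2 Acute-7d libraries, so a term for it beside the groups rests on the 2 Acute-7d libraries alone.

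A gene was called when limma's moderated test gave 2-fold or more with an adjusted p under 0.05 (Benjamini-Hochberg, 24303 genes), on log2(normalized count + 1). Log2 fold changes below are on that scale, with their standard error (SE), and understate the change of low genes, while folds are ratios of group means. With 2 libraries per group an exact two-sided permutation test of 2 against 2 cannot go below p = 0.333, so p-values come from the fit across all genes. They measure the spread between the libraries of a group.

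*Cxcr4* and *Ccr4*, which were low in T_Dysf, and *Cxcr6*, which was at its highest there, are shown by their promoters because their levels lay on opposite sides. The 200 bases before the transcription start are printed 5′ to 3′ on the gene strand, from RefSeq for GRCm38.p6, which held a promoter for 8 of the 9 receptors. Capitals mark 2 short motifs on either strand: CAGAC, the half-site of SMAD factors, which act below TGF-β1, and GGAAA, the core of NFAT factors, which act below the T cell receptor.
Cxcr4 (chr1:128592300-128592499, minus strand): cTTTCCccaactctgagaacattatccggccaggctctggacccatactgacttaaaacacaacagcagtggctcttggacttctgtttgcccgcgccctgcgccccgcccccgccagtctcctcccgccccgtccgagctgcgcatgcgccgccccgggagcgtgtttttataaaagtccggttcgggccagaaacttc
Ccr4 (chr9:114496545-114496744, minus strand): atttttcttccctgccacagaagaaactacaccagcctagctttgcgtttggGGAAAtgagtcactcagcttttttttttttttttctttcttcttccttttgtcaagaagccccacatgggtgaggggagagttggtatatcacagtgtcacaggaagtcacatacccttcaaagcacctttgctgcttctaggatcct
Cxcr6 (chr9:123806277-123806476, plus strand): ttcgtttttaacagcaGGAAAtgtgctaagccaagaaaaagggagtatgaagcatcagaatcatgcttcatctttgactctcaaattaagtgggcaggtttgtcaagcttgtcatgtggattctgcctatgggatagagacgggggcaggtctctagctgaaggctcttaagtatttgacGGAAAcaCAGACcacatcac

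The same window was searched for *Cxcr3* and *Cx3cr1*, where 122 and 200 of its 200 bases lie in exons that GENCODE annotates as untranslated, so their letters are not printed. The *Ccr2* window also lies in such exons over all its 200 bases. Its matches below are thus within transcribed sequence of some annotated transcript. Of the 8 promoters, CAGAC was found in *Cxcr6*, where its 1 match began 13 bases before the start, and in *Ccr8*, which was near 0 in T_Dysf and had 2 matches. GGAAA had 2 matches in *Cxcr6* and 1 each in *Cxcr4*, *Ccr4* and *Cx3cr1*, 3 in *Ccr2*, and none in *Cxcr3*, *Ccr8* or *Ccr9*. The third motif searched, CTTTG, the core of TCF and LEF factors, had 3 matches in *Ccr4*, 2 each in *Cxcr3* and *Ccr2*, 1 each in *Cxcr6*, *Ccr8* and *Ccr9*, and none in *Cxcr4* or *Cx3cr1*. No match overlapped another. Of the 32851 promoters in the same reference, 35.5% held CAGAC, 47.6% held GGAAA and 40.3% held CTTTG on either strand in the same window, so each of these short motifs is common. A match describes the letters of the window and is not a binding site.

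T_Dysf cells had lower *Cxcr3* and *Cxcr4* transcripts than each of the other groups. *Ccr4* was lower and *Cx3cr1* higher than in Acute-2d and Effector, and neither was called against Acute-7d. *Cxcr6* was at its highest in T_Dysf without a call, and *Ccr2* lay within the range of Acute-2d. Against Acute-7d, 2 of the 9 receptors were called, both lower (*Cxcr3* and *Cxcr4*). Of all genes, 5.57% were called in that comparison, 2.54% higher and 3.03% lower. Against Acute-2d, 4 of 9 were called, 1 higher (*Cx3cr1*) and 3 lower (*Cxcr3*, *Cxcr4* and *Ccr4*), beside 7.35% of all genes, 3.14% higher and 4.21% lower. Against Effector the same 4 receptors were called in the same directions, beside 9.22% of all genes, 4.47% higher and 4.75% lower. These 3 comparisons share the T_Dysf libraries. In each of them 7 of the 9 receptors had libraries that did not overlap between the groups. Of all genes, 54.8%, 54.3% and 56.4% did not overlap against Acute-7d, Acute-2d and Effector. Lack of overlap alone therefore does not set a receptor apart. Between Acute-7d and Acute-2d also 7 of the 9 receptors did not overlap, beside 32.1% of all genes. For Effector it was 5 receptors against Acute-7d and 4 against Acute-2d, beside 54.9% and 54.2% of all genes. The median log2 fold change of T_Dysf over the 9 receptors was -0.70, -1.08 and -1.29 against Acute-7d, Acute-2d and Effector. Over all genes the median was 0. Those 3 medians are the values of *Ccr2*, *Cxcr5* and *Ccr8* in turn, none of which was called. *Cxcr5* and *Ccr8* were low in every library, so the medians do not show a fall of the receptors in general.

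**Figure D1:**
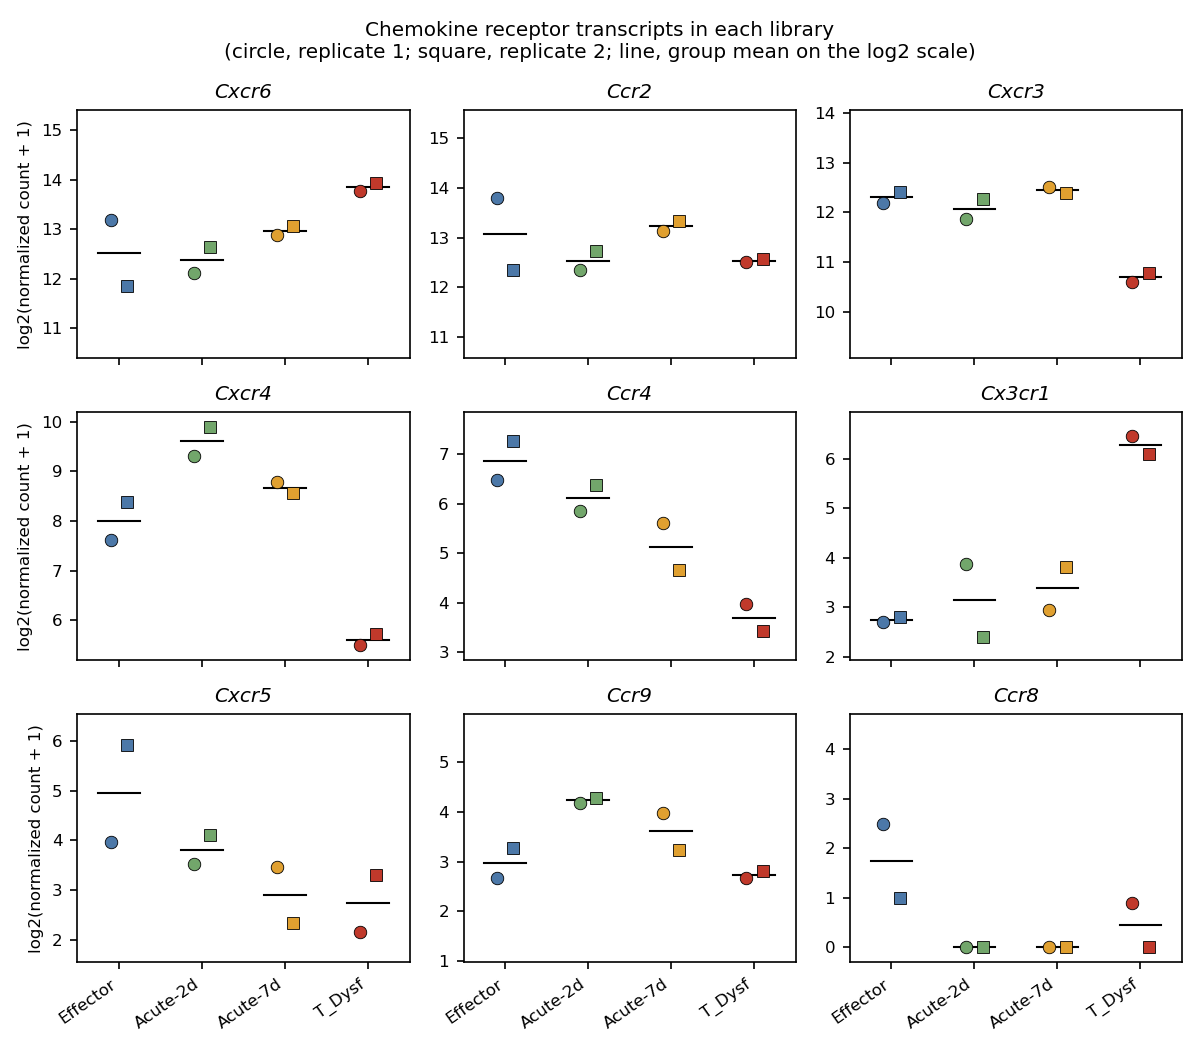
Level of each receptor in each of the 8 libraries, as log2(normalized count + 1) on an axis of its own, with circles for replicate 1, squares for replicate 2 and a line for the group mean. *Cxcr3*, *Cxcr4* and *Ccr4* are lowest in both T_Dysf libraries, and *Cxcr6* and *Cx3cr1* are highest in both.

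*Cxcr3* (chrX:101731535-101734269) encodes the receptor for the interferon-induced chemokines CXCL9, CXCL10 and CXCL11, which guides effector T cells into inflamed tissue. It stood at 4708 and 5491 normalized counts in the 2 Effector libraries, 3712 and 4938 in Acute-2d, 5877 and 5405 in Acute-7d, and 1554 and 1752 in T_Dysf. Both T_Dysf libraries were below all 6 others, which overlapped or lay close together. T_Dysf was 3.41-fold below Acute-7d (log2 fold change -1.77, SE 0.17, adjusted p = 0.0089 by limma), 2.62-fold below Acute-2d (-1.38, SE 0.17, adjusted p = 0.0124) and 3.08-fold below Effector (-1.62, SE 0.17, adjusted p = 0.0087). The order of group means was Acute-7d, Effector, Acute-2d and T_Dysf, and no difference among the upper 3 was called. *Cxcr3* is X-linked, and the part of the *Xist* split in its level was not tested beyond the RESUB term. *Xist* was low in 1 of the 2 Acute-7d libraries, and *Cxcr3* was at 5877 in that library and at 5405 in the other. *Xist* was at 21871 and 22311 in T_Dysf and at 26861 and 22106 in Acute-2d. Without T_Dysf replicate 1 the log2 fold changes against Acute-7d, Acute-2d and Effector were -1.69, -1.29 and -1.54, and the calls ended. Without Acute-7d replicate 1, the library of that group with low *Xist*, the change against Acute-7d was -1.71 and its call ended. With a term for the RESUB libraries the adjusted p was 0.0575 against Acute-7d and 0.136 against Effector, so both calls ended. In the 2 groups alone it was 0.0627 against Acute-2d, and that call ended. The log2 fold changes stayed between -1.87 and -1.17 in all alternatives.

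*Cxcr4* (chr1:128588199-128592293) encodes the receptor for CXCL12, which holds T cells in bone marrow and lymphoid stroma. Its level was 196 and 331 in Effector, 637 and 950.0 in Acute-2d, 438 and 377 in Acute-7d, and 44.0 and 51.6 in T_Dysf. No 2 groups overlapped, and the order of group means ran from Acute-2d through Acute-7d and Effector to T_Dysf. T_Dysf was 8.52-fold below Acute-7d (log2 fold change -3.07, SE 0.32, adjusted p = 0.0114), 16.6-fold below Acute-2d (-4.00, SE 0.32, adjusted p = 0.00519) and 5.51-fold below Effector (-2.39, SE 0.32, adjusted p = 0.0146). The fall against Acute-2d was the sole receptor call that held in all 21 alternatives tried. Without T_Dysf replicate 1 the adjusted p was 0.0757 against Acute-7d and 0.0847 against Effector, without either Acute-7d library it was 0.0705 or 0.0542 against Acute-7d, and with a term for the RESUB libraries it was 0.0706 and 0.199. *Cxcr4* was also the sole receptor called between groups other than T_Dysf, where Effector was 3.01-fold below Acute-2d (-1.61, SE 0.32, adjusted p = 0.0375). That call ended in 7 of the 8 fits that left out 1 library, with adjusted p between 0.0743 and 0.127 in those 7. The neighbours Acute-2d and Acute-7d differed by 0.94 on the log2 scale (adjusted p = 0.636), and Acute-7d and Effector by 0.67 (adjusted p = 0.252), which the test did not call.

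*Ccr4* (chr9:114490316-114504916) encodes the receptor for CCL17 and CCL22, which is best known on helper and regulatory T cells and on skin-homing cells. It stood at 88.6 and 152 in Effector, 56.9 and 82.0 in Acute-2d, 48.0 and 24.2 in Acute-7d, and 14.7 and 9.79 in T_Dysf. The 4 groups did not overlap, and the means fell in that order. T_Dysf was 9.86-fold below Effector (log2 fold change -3.17, SE 0.50, adjusted p = 0.02) and 5.68-fold below Acute-2d (-2.41, SE 0.50, adjusted p = 0.0449). Against Acute-7d the ratio was 2.95 (-1.43, SE 0.50, adjusted p = 0.157) and was not called. The call against Acute-2d ended in each of the 8 fits that left out 1 library (adjusted p between 0.0579 and 0.166), and that against Effector ended without either T_Dysf library or without Effector replicate 2 (adjusted p between 0.0712 and 0.0824). No neighbouring pair in the order was called (Effector against Acute-2d, adjusted p = 0.384).

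*Cx3cr1* (chr9:119901616-120069879) encodes the receptor for membrane-bound fractalkine, a mark of cytolytic effector T cells, NK cells and monocytes. It was near the floor of 3 reads in the other groups, at 5.48 and 6.02 in Effector, 13.7 and 4.32 in Acute-2d, and 6.69 and 13.1 in Acute-7d, and stood at 87.2 and 67.6 in T_Dysf. Every T_Dysf library was above every other. The mean was 13.5-fold above Effector (log2 fold change 3.53, SE 0.63, adjusted p = 0.0267), 8.59-fold above Acute-2d (3.14, SE 0.63, adjusted p = 0.0415) and 7.81-fold above Acute-7d (2.90, SE 0.63, adjusted p = 0.058), of which the last was not called. The 3 groups other than T_Dysf were not told apart by the test. The calls against Acute-2d and Effector ended in 8 and 6 of the 8 fits that left out 1 library, where the log2 fold change stayed at or above 2.40. Both also ended with a replicate block (adjusted p = 0.0809 and 0.0558), in the 2 groups alone (0.121 and 0.0671) and with a term for the RESUB libraries (0.0708 and 0.311). Against Acute-7d a call was made with a pseudocount of 10 (adjusted p = 0.0217) and among genes that reach 50 normalized counts (0.0236). It was also made after quantile normalization (0.0472) and among protein-coding genes (0.0331).

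Cells other than CD8+ T cells carry *Cx3cr1* and *Ccr2*, so their markers were read beside them. The summed level of 6 monocyte and macrophage markers was 424 to 447 in T_Dysf, inside the 280 to 664 of the other groups. Most of it in T_Dysf was *Lyz2*, at 273 and 245. *Csf1r* was at 21.01 and 18.0 in T_Dysf and between 6.49 and 20.9 elsewhere, and *Adgre1* at most at 6.90 in any library. *Itgam* was at 49.1 and 51.4 in T_Dysf and between 39.3 and 225 elsewhere. *Cd14* was at 13.8 and 16.0 in T_Dysf and between 25.7 and 56.7 elsewhere. Within that list *Fcgr3*, an Fc receptor gene, was at 83.7 and 90.7 in T_Dysf and between 10.04 and 55.7 elsewhere. The summed level of 4 NK cell markers was 478 to 759 in T_Dysf, inside the 279.9 to 1548 of the others. Its largest part in T_Dysf was *Klrb1c*, at 243 and 544. *Ncr1*, which marks NK cells, was at or under 3 reads in T_Dysf and between 8.03 and 105 elsewhere, whereas *Tyrobp*, an adaptor of NK and myeloid receptors, was at 230 and 208 in T_Dysf and between 13.4 and 50.5 elsewhere. The part of these markers in the *Cx3cr1* result was not tested. In bulk RNA fewer cells of a kind and less RNA per cell cannot be told apart, and the same holds for a higher level.

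*Cxcr6* (chr9:123806475-123811760) encodes the receptor for CXCL16 and is known for the residence of CD8+ T cells in liver, lung and tumours. Its level was 9282 and 3716 in Effector, 4429.8 and 6391 in Acute-2d, 7543 and 8591 in Acute-7d, and 13971 and 15736 in T_Dysf. T_Dysf was above every other library. The means were 1.84, 2.75 and 2.29 times those of Acute-7d, Acute-2d and Effector, with log2 fold changes of 0.88 (SE 0.46, adjusted p = 0.314), 1.48 (SE 0.46, adjusted p = 0.12) and 1.34 (SE 0.46, adjusted p = 0.127), and none was called. The 2 Effector libraries differed 2.498-fold, and this spread enters the SE of every group. Without Effector replicate 1, T_Dysf was 2.00 above Effector on the log2 scale (adjusted p = 0.0227) and was called, and without Effector replicate 2 it was 0.68 above, under 2-fold. Without either Effector library the difference from Acute-2d stayed at 1.48 and was called (adjusted p = 0.0308 and 0.0309). Among genes with a mean of at least 50 normalized counts the adjusted p was 0.0318 against Effector and 0.028 against Acute-2d. Against Acute-7d the difference stayed under 2-fold in every alternative, with log2 fold changes of 0.78 to 0.98.

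*Ccr2* (chr9:124101950-124113557) encodes the receptor for CCL2 and related monocyte-attracting chemokines. It was at 14276 and 5199.6 in Effector, 5171 and 6782 in Acute-2d, 8978 and 10388 in Acute-7d, and 5844 and 6042 in T_Dysf. T_Dysf lay within the range of Acute-2d and below both Acute-7d libraries, and the Effector libraries lay on both sides of Acute-7d and T_Dysf. No comparison of *Ccr2* was called. T_Dysf was lower than Acute-7d by a log2 fold change of -0.70 (SE 0.49, adjusted p = 0.432), and Acute-7d was higher than Acute-2d by 0.71 (SE 0.49, adjusted p = 0.85). Its difference between T_Dysf and Effector was -0.54 (SE 0.49, adjusted p = 0.525), and without Effector replicate 1 it turned to 0.19, while without Effector replicate 2 it was -1.26 and was called (adjusted p = 0.0477).

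*Cxcr5*, *Ccr9* and *Ccr8* were low in every library. *Cxcr5* (chr9:44511787-44561877), the receptor for the B cell follicle chemokine CXCL13, stood at 14.6 and 60.2 in Effector, 10.5 and 16.2 in Acute-2d, 10.04 and 4.04 in Acute-7d, and 3.45 and 8.90 in T_Dysf. It was highest in Effector replicate 2, 4.12-fold above the other Effector library, and its log2 fold change of T_Dysf against Effector was -2.22 (SE 0.88, adjusted p = 0.166). Of its exon bases, 4.17% overlap *Bcl9l* on the opposite strand. The summed level of 5 B cell markers, cells known for *Cxcr5*, was 136 to 178 in Effector and 153 to 168 in T_Dysf.

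*Ccr9* (chr9:123678439-123784330), the gut-homing receptor for CCL25, was at 5.32 and 8.64 in Effector, 17.2 and 18.5 in Acute-2d, 14.9 and 8.38 in Acute-7d, and 5.32 and 6.04 in T_Dysf. Both Acute-2d libraries were above all others. T_Dysf against Acute-2d gave a log2 fold change of -1.50 (SE 0.42, adjusted p = 0.0917), which was not called over all genes and had an adjusted p of 0.0439 when only protein-coding genes were tested. *Ccr8* (chr9:120092114-120094906), a receptor for CCL1 known on regulatory and skin-resident T cells, passed 3 reads in Effector replicate 1 alone, at 4.57. It was at 1.003 in Effector replicate 2, at 0.863 in T_Dysf replicate 1 and listed at 0 in the other 5, so no fold is given.

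**Figure D2:**
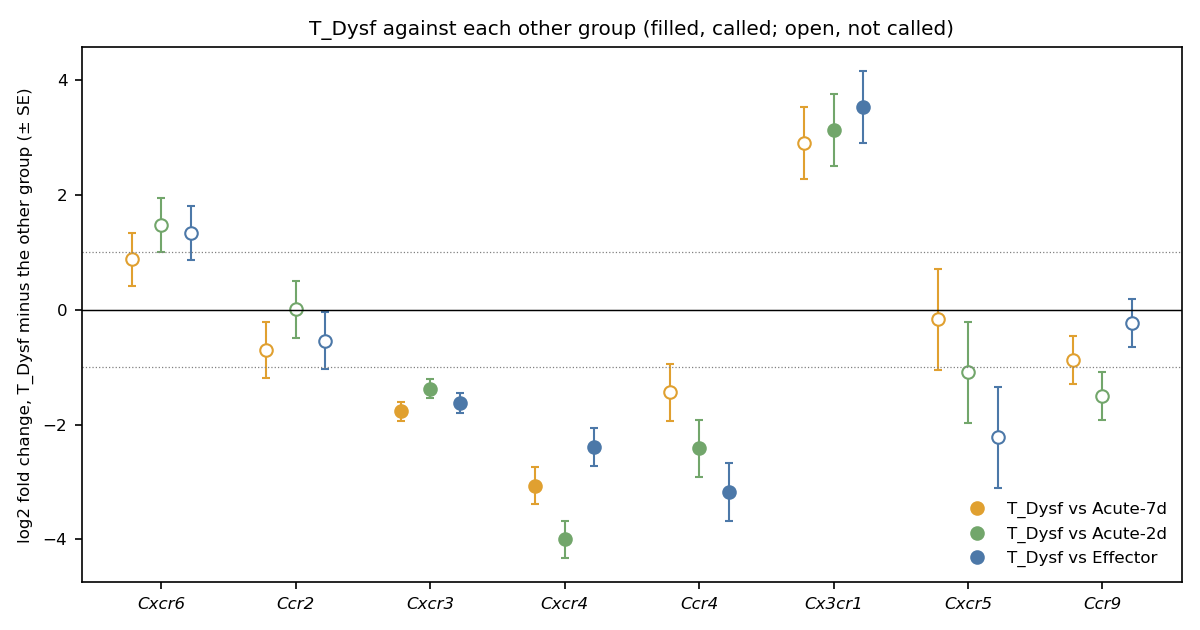
Log2 fold change of T_Dysf minus Acute-7d, Acute-2d or Effector for 8 receptors, with bars for the SE, filled points for called differences and dotted lines at 2-fold; *Ccr8* is left out because it stayed near 0. *Cxcr4* runs from -2.39 to -4.00, *Cx3cr1* from 2.90 to 3.53, and *Ccr2* lies within 0.70 of 0.

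Between the groups other than T_Dysf 1 receptor call was made. Acute-7d against Acute-2d, 7 against 2 days of stimulation, both rested to day 19, gave 0 receptor calls with limma, beside 0.169% of all genes. At an unadjusted p under 0.05 with a fold of at least 2 it gave 0, beside 910 of 24303 genes. The largest of these differences by log2 fold change were *Ccr4* at -0.98 (SE 0.50, adjusted p = 0.813) and *Cxcr4* at -0.94 (SE 0.32, adjusted p = 0.636), lower in Acute-7d, followed by *Cxcr5* at -0.92 (SE 0.88, adjusted p = 0.921). Effector against Acute-7d gave 0 receptor calls with limma, beside 8.06% of all genes. At an unadjusted p under 0.05 it gave 2 (*Ccr4* and *Ccr8*), beside 3515 of 24303 genes. *Ccr8* had at most 5 reads in any library. *Ccr4* was 3.34 times as high in Effector there (log2 fold change 1.74, SE 0.50, adjusted p = 0.0855) and was called when only genes that reach 50 normalized counts were tested (adjusted p = 0.0315). *Cxcr5* had the largest difference there, 5.31 times as high in Effector (2.05, SE 0.88, adjusted p = 0.203), and was not called. Effector against Acute-2d gave the 1 call of *Cxcr4*, beside 8.78% of all genes.

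The makeup of the receptor transcripts was read per kb of exon, the scale on which genes can be compared within a library. *Cxcr6*, *Ccr2* and *Cxcr3* together made up 93.7% to 99.5% of the summed level per kb of the 9 receptors in every library. In the 6 libraries of the other groups *Cxcr6* held 27.5% to 39.9%, and in T_Dysf it held 71.7% and 72.9%. *Cxcr3* held 21.7% to 44.5% in the other groups and 8.75% and 8.90% in T_Dysf. The ratio of *Cxcr6* to *Ccr2* normalized counts, which no size factor affects, was 0.650 and 0.715 in Effector, 0.857 and 0.942 in Acute-2d, 0.840 and 0.827 in Acute-7d, and 2.39 and 2.60 in T_Dysf. The 2 Effector libraries, which differed 2.75-fold in *Ccr2* and 2.498-fold in *Cxcr6*, had nearly the same ratio of these genes. The ratio of *Cxcr6* to *Cxcr3* was 0.677 to 1.97 in the other groups and 8.99 and 8.98 in T_Dysf. These ratios were chosen after the values were seen and carry no test.

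**Figure D3:**
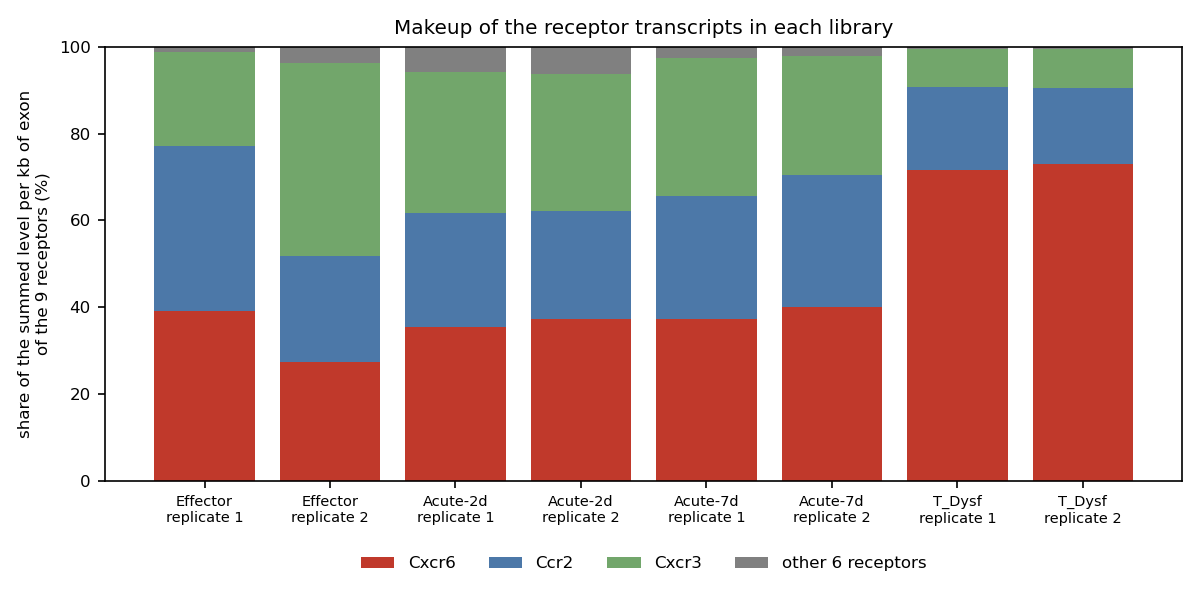
Share of the summed level per kb of exon of the 9 receptors that each of *Cxcr6*, *Ccr2* and *Cxcr3*, and the other 6 together, held in each library, in percent. *Cxcr6* holds 71.7% and 72.9% in T_Dysf and at most 39.9% elsewhere.

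For *Ccr2*, *Cxcr6*, *Cxcr4* and *Cxcr5* the Effector libraries differed from each other by more than the libraries of any other group did. *Ccr2* and *Cxcr6* were higher in replicate 1, by 2.75-fold and 2.498-fold, and of 12019 genes with a mean of at least 50 over all libraries 1.86% and 2.52% differed by more. *Ccr4*, *Cxcr4* and *Cxcr5* were higher in replicate 2, by 1.72-fold, 1.69-fold and 4.12-fold. *Ccr4* differed more within Acute-7d, by 1.98-fold. *Cxcr3* differed 1.17-fold, and *Cx3cr1* 1.10-fold against 3.17-fold within Acute-2d. *Tcf7*, the memory transcription factor gene, examined after the values were seen, was 3.70-fold higher in replicate 2 as well. In T_Dysf the 3 abundant receptors differed between libraries by at most 1.13-fold.

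Of the 9 receptor genes 7 lie on chromosome 9, in part side by side. *Ccr9*, *Cxcr6* and *Ccr2* lie in this order with 22.1 kb and 290 kb between them, and *Cx3cr1* and *Ccr8* are separated by 22.2 kb. From *Ccr9* to *Ccr2*, T_Dysf against Acute-7d gave -0.87 for *Ccr9* (SE 0.42, adjusted p = 0.272 by limma), 0.88 for *Cxcr6* and -0.70 for *Ccr2*. Of the genes between them, *Fyco1* was at -0.59 (SE 0.22, adjusted p = 0.182), *Xcr1* at 0.00 (SE 0.79) and *Ccr1* at -2.07 (SE 0.99, adjusted p = 0.271). *Ccr3* was at -2.23 (SE 0.49, adjusted p = 0.0615), with 4.46 and 3.03 in Acute-7d and listed at 0 in T_Dysf. *Ccr1l1* did not pass 3 reads in any library. *Lztfl1* and *Gm10052*, inside the annotated span of *Ccr9*, were at -0.19 (SE 0.18) and 0.15 (SE 0.22). None was called in that comparison. Inside the annotated span of *Cx3cr1* and on its strand, *Csrnp1* was at -0.13 (SE 0.32) and *Gorasp1* at 0.42 (SE 0.35), neither called. *Gm33858*, an antisense gene that overlaps the 5′ end of the annotated span of *Cx3cr1*, was at 2.42 (SE 0.60, adjusted p = 0.0776). It was not called, with 8.63 and 8.01 in T_Dysf and at most 2.02 elsewhere. Counting by strand is not stated in the sources used here. In transcripts paired with RefSeq, the exons of *Cx3cr1* shared no bases with *Gm33858* or another gene of the table.

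**Figure D4:**
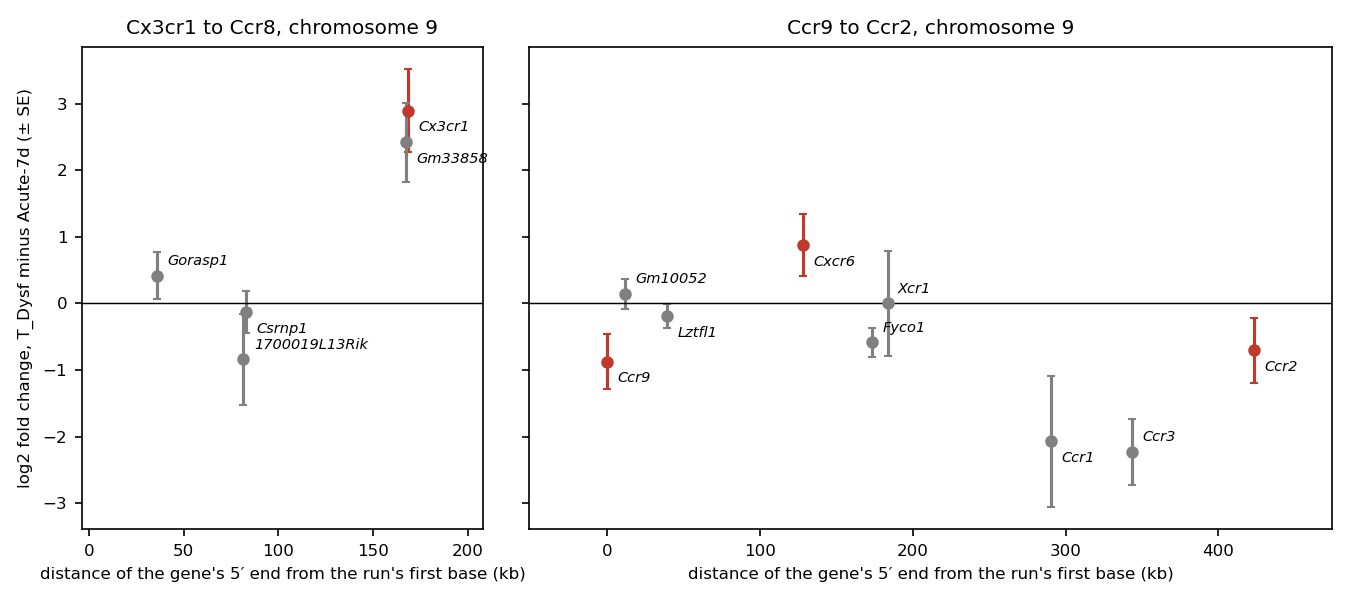
Log2 fold change of T_Dysf minus Acute-7d, with bars for the SE, against the distance of each gene's 5′ end from the start of its run on chromosome 9, in kb, for genes above 3 reads in at least 2 libraries; receptors of the set are red and other genes grey. *Cx3cr1* at 2.90 lies beside the overlapping *Gm33858* at 2.42, and *Cxcr6* is at 0.88, while *Ccr3* at -2.23 and *Ccr1* at -2.07 are the lowest.

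Other chemokine receptors were read as a list of 15, of which 12 were in the table. Against Acute-7d, 3 of these 12 were called, 1 higher and 2 lower, and against Acute-2d also 1 and 2, beside 5.57% and 7.35% of all genes. *Cmklr1*, the chemerin receptor of NK and myeloid cells, was at 94.9 and 121 in T_Dysf and at most 11.9 elsewhere (log2 fold change 4.92, SE 0.76, adjusted p = 0.0273 against Acute-7d). *Ccr7*, the lymph node homing receptor, was at 38.9 and 66.7 in T_Dysf and between 461 and 5304 elsewhere (-5.08, SE 0.76, adjusted p = 0.0254 against Acute-7d). *Ccrl2*, which binds chemerin without signalling, was at 43.2 and 48.0 against 137 to 325 elsewhere (-1.71, SE 0.16, adjusted p = 0.00866 against Acute-7d). These 3 genes were called in the same direction against Effector too, where *Ccr3* was also called, at 7.31 and 2.01 in Effector and listed at 0 in T_Dysf.

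Of 15 ligands of the 9 receptors 9 were in the table. With limma 0 were called in each of the 6 comparisons. At an unadjusted p under 0.05 either 0 or 1 was, beside 910 to 4060 of 24303 genes. *Ccl1*, the *Ccr8* ligand, was the highest in T_Dysf, at 199 and 210.0, and ran from 12.3 to 167 in the other libraries. *Cxcl10*, a *Cxcr3* ligand, ran from 18.3 to 419 within Effector and was at 26.8 and 28.5 in T_Dysf. *Cxcl16*, the *Cxcr6* ligand, stayed between 8.43 and 18.2, and *Cxcl12* and *Cx3cl1* did not pass 6.06.

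Of 21 genes for the signal below the receptors 20 were in the table, and 1 was called against Acute-7d, 2 against Acute-2d and 3 against Effector, beside 5.57%, 7.35% and 9.22% of all genes. *Pik3r5*, the p101 regulatory subunit of phosphoinositide 3-kinase γ, was at 1323 and 1358 in T_Dysf and between 2719 and 5356 elsewhere, and was called lower in all 3 (log2 fold change -1.80, SE 0.15, adjusted p = 0.00621 against Acute-7d). *Tiam1*, a Rac activator, was at 39.7 and 51.6 in T_Dysf and between 103 and 191 elsewhere, called lower against Acute-2d and Effector. *Gnai2*, the main inhibitory G protein subunit of lymphocytes, was at 17234 and 17421 in T_Dysf and between 10824 and 16176 elsewhere, and was not called. *Gng2*, a G protein γ subunit, was at 11045 and 9872 in T_Dysf and was called higher against Effector alone.

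Of 16 genes that end or dampen the receptor signal 15 were in the table. Against Acute-7d 5 were called, 3 higher and 2 lower, against Acute-2d 4 higher and 2 lower, and against Effector 3 higher and 1 lower, beside 5.57%, 7.35% and 9.22% of all genes. *Arrb1*, β-arrestin 1, was at 518 and 437 in T_Dysf, 814 and 1516 in Effector and between 3644 and 7793 in Acute-2d and Acute-7d (log2 fold change -2.94, SE 0.32, adjusted p = 0.0123 against Acute-7d). *Grk5*, a receptor kinase, was at 20.7 and 38.3 in T_Dysf and between 171 and 257 elsewhere (-3.05, SE 0.30, adjusted p = 0.00983). The related *Grk2* and *Arrb2* were not called: *Grk2* was at 9846 and 9278 in T_Dysf against 10146 to 11686 elsewhere, and *Arrb2* at 7468 and 7157 against 4339 to 5541. *Rgs10* was at 2115 and 2169.8 in T_Dysf and between 179.6 and 511 elsewhere (2.58, SE 0.36, adjusted p = 0.0207). *Rgs16* was at 2152 and 2441 in T_Dysf, 1142 and 2262 in Effector, and between 401 and 654 in Acute-2d and Acute-7d. It was called higher in Effector than in Acute-7d but not than in Acute-2d. *Rgs18* was at 328 and 431 in T_Dysf and at most 162 elsewhere (1.22, SE 0.19, adjusted p = 0.028).

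**Figure D5:**
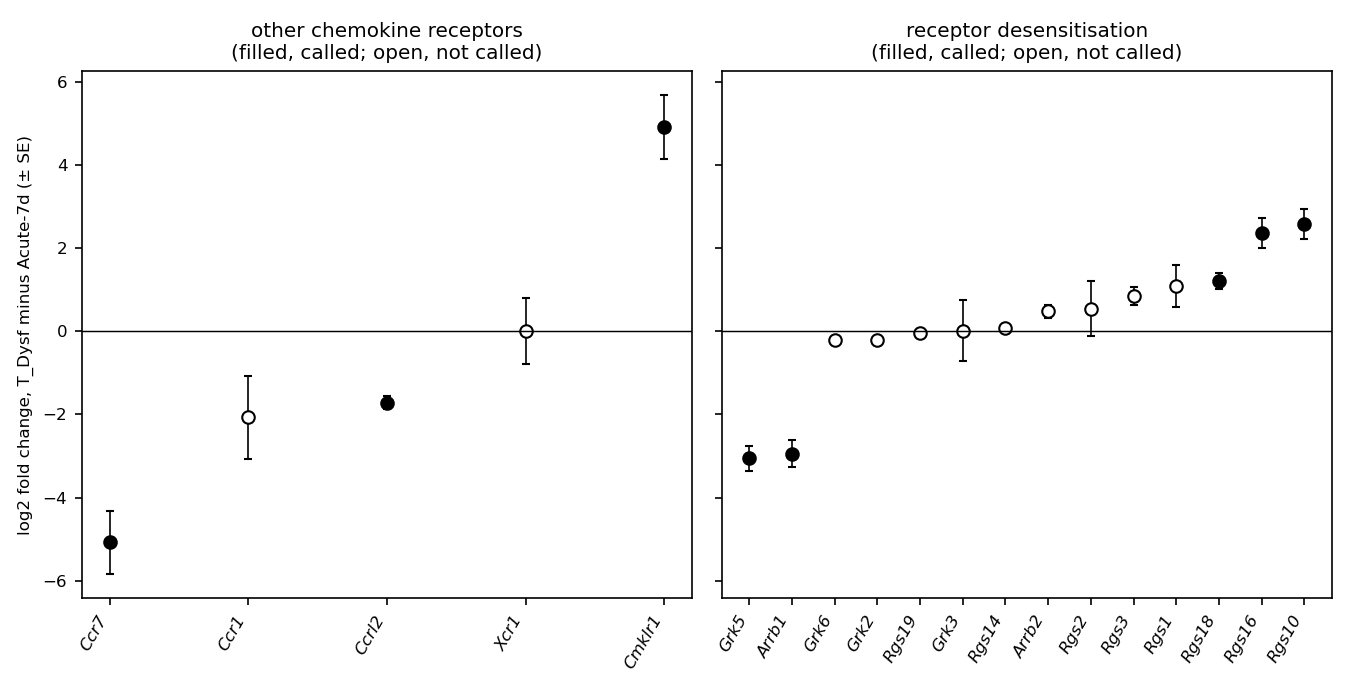
Log2 fold change of T_Dysf minus Acute-7d, with bars for the SE, for the other chemokine receptors and the genes of receptor desensitisation that reach 10 normalized counts in some library; filled points are called. *Ccr7* at -5.08 and *Cmklr1* at 4.92 are the ends of the left plot, and *Grk5* at -3.05 and *Rgs10* at 2.58 those of the right.

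For 7 receptors, those that reach 50 normalized counts, the 2 genes with the most similar levels over the 8 libraries were sought, by the root mean square difference of the centred log2 values. *Cxcr3* was followed most closely by *Itgb1*, the integrin β1 gene, with a difference of 0.14, and *Ppan* at 0.17, where the median over all genes that reach 50 was 0.82. *Itgb1* was at 3005 and 3919 in T_Dysf and between 8932 and 14785 elsewhere. *Cxcr6* was followed by *Lyn*, a Src family kinase gene, at 0.18 and *Entpd1*, which encodes the ectonucleotidase CD39, at 0.20, where the median was 0.79. *Lyn* was at 364 and 373 in T_Dysf, and it also repeated the Effector split, at 293 and 124. *Cxcr4* was followed by *Cacna2d4* at 0.29 and *Espn* at 0.34 (median 1.55), and *Ccr4* by *Slc29a2* at 0.42 and *Vav2* at 0.46 (median 1.30). The nearest genes to *Cx3cr1* were the noncoding *Gm11707* at 0.50 and *Tsga10* at 0.51, where the median was 1.51. The nearest genes to *Ccr2* and *Cxcr5* were antisense or pseudogene entries at 0.26 to 0.53. Likeness over 8 libraries of 4 groups is a description.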

How the data were processed

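RNA-Seq of sorted P14 CD8+ T cells was analysed in 4 groups of 2 libraries, mapped from the sample labels. Read alignment by the authors used STAR and the mm10 genome, quantification used Partek Flow with RefSeq transcripts, and normalization used the DESeq2 median ratio. The deposited values are a signal: estimated read counts per gene divided by the size factor of each library, called normalized counts here. Whole reads were not recovered (57.9% to 77.9% of values below 1000 reads were whole multiples of 1 read within 0.05 reads), so no count model was fitted. Libraries held an estimated 19381799 to 24856512 reads on genes. The floor of 3 reads covers counting error only. All columns of the table were used.

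Groups were compared with limma 3.58.1 in R 4.3.3 (a linear model with a mean-variance trend in eBayes). The fit used log2(normalized count + 1) of 24303 genes, all 8 libraries, 4 group means, no covariate and 4 residual degrees of freedom, two-sided, in 6 comparisons. Benjamini-Hochberg adjustment covered all genes. The procedure was tested on simulated data. Sequences came from RefSeq and gene positions and exons from GENCODE vM21, both GRCm38. Tables were made with Python 3.11.15, pandas 2.3.3, numpy 2.4.6 and matplotlib 3.10.9.

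All 9 receptors are named. Lists of other receptors, ligands, signalling and desensitisation genes and cell type markers (CD8+ T, CD4+ and regulatory T, B, NK and dendritic cells, monocytes, neutrophils) are given by counts. The members, lists and tests were chosen with earlier results of these data known. Some genes are not reported here. *Tcf7* and *Xist* were added after the values were seen. Alternatives were other pseudocounts (0.1, 10), filters at 50 normalized counts, 3 rescalings, protein-coding genes, the 2 groups alone, a replicate block, a RESUB term, other thresholds, and leaving out each library.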

Additional observations from a re-analysis of the deposited data

How the results depend on the processing

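With 2 libraries per group few calls are firm. Over 39 log2 fold changes of single receptors and 21 alternatives, 800 values were computed. Of these, 710 kept their direction and their side of the threshold, 62 lost the call, 25 gained it and 3 reversed. The 39 leave out *Ccr8* and every difference smaller than its SE, so reversals of those were not counted. Most of the 39 were not called as reported, so most kept values are uncalled ones that stayed uncalled. The reversals were *Ccr2* in Effector against Acute-2d (-0.19) and in T_Dysf against Effector (0.19), both without Effector replicate 1 (1.27 and -1.26 without replicate 2), and *Ccr4* in Effector against Acute-2d (-0.20) with a RESUB term. Of 35 calls among the list genes none reversed, with 551 of 732 values still called. Scaling to equal 75th percentiles moved the median of all genes by -0.11 on the log2 scale in Effector against Acute-2d, and none of the 39 changed direction under the 3 rescalings.

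The count of 2 receptors called against Acute-7d was 0 with the RESUB term and 4 by unadjusted p, and 0 to 2 when 1 library was left out. The count of 4 against Acute-2d was 1 in the 2 groups alone, 2 with the RESUB term and 1 to 3 when 1 library was left out. The count of 4 against Effector was 1 in the 2 groups alone, 0 with the RESUB term and 0 to 4 when 1 library was left out. For Effector against Acute-7d the count of 0 was 1 with a maximum or a mean of at least 50 and with adjusted p under 0.1, and 2 by unadjusted p. For Effector against Acute-2d the count of 1 was 0 in the 2 groups alone and with the RESUB term, 3 by unadjusted p, and 0 to 1 when 1 library was left out. Over all genes the counts ranged from 422 to 3184 (T_Dysf against Acute-7d, 1353 as reported), 656 to 3517 (Acute-2d, 1787), 386 to 4060 (Effector, 2241), 1 to 910 (Acute-7d against Acute-2d, 41), 155 to 3515 (Effector against Acute-7d, 1958) and 235 to 3705 (Effector against Acute-2d, 2135).

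With the replicate block, 2 receptors were called in T_Dysf against Acute-2d in place of 4, and 3 against Effector in place of 4, where *Cx3cr1* was lost. The replicate numbers were not taken as pairs: over 6 pairs of groups the replicate differences correlated across genes between -0.028 and 0.118, with 1 pair over 0.1. *Ccr8*, *Ccr9* and *Cxcr5* are limited by depth.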

Other observations

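Markers of other cell types were read in every library. The summed level of 4 CD4+ and regulatory T cell markers was 1058 to 1639 in all 8 libraries, nearly all of it *Zbtb7b* (1041 to 1625). *Foxp3*, the regulatory T cell factor, was at 49.5 and 45.2 in Acute-7d and between 2.15 and 20.96 elsewhere, and was called lower in Effector than in Acute-7d (log2 fold change -3.29, SE 0.53, adjusted p = 0.0256 by limma). Of the 6 dendritic cell markers 5 were in the table, *Clec9a* and *Siglech* were at or under 3 reads in all 8 libraries, and *H2-Aa* and *Cd74* were at 549 and 2163 in Acute-2d replicate 1, against at most 172 and 521 in the other 7. Of the 4 neutrophil markers only *Ly6g* was in the table, at 2.67 or less. The summed level of 5 B cell markers was 55.8 and 68.7 in Acute-7d and 109 and 116 in Acute-2d.

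*Tcf7*, a marker of memory cells chosen after its values were seen, was at 161 and 122 in T_Dysf, against 2178 to 18473 in the other libraries.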
